A study of Mus musculus with 27 samples.

Results

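Contacts of the N2 viewpoint were compared between the forelimb and the hindlimb bud of the E14.5 mouse embryo. The viewpoint is one of 3 chosen at putative limb enhancers of *Nkx3-2* on chromosome 5, and its primer stands downstream of the N2 enhancer itself. Of the 27 libraries of the series, the 6 with this viewpoint and a limb tissue were taken by their titles, 3 from forelimb and 3 from hindlimb, and the 3 liver libraries of the same viewpoint are given beside them without a test. Each replicate was made from pooled buds of 5 to 6 embryos, whose strain is C57BL/6Ncrl in one label and C57BL/6NJ in another. All groups come from the same unselected laboratory strain, no allele, transgene or treatment is named for any of them, and whole buds hold many cell types. In such material, a contact made in fewer cells and a contact made less often in every cell cannot be told apart.

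In 4C-Seq, chromatin is crosslinked, cut with *BglII* and religated, so that fragments lying close together in the nucleus become joined. The partners of one chosen fragment are then amplified from a primer that faces its cut end, and reads are counted on every *BglII* fragment of the genome. A topologically associating domain (TAD) is a stretch of chromosome whose parts meet more often with one another than with sequence outside it, and enhancers mostly act on genes of their own TAD. *Nkx3-2*, also known as *Bapx1*, encodes a homeodomain repressor of cartilage maturation that is active in the limb skeleton, and *Rab28*, its neighbour in the TAD, encodes a small GTPase.

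The sequence at the viewpoint is shown because every read starts from it. The first 26 bases are the primer, which lies in an intergenic stretch before *Rab28* and points towards *Nkx3-2*, and the *BglII* site is in capitals.
Viewpoint at chr5:41403985-41404040, plus strand: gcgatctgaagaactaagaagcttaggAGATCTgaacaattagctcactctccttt
The fragment on the far side of this site, chr5:41404013-41406857, held 24420, 1872 and 20747 reads in forelimb replicates 1 to 3, and 2953, 3902 and 15779 reads in hindlimb replicates 1 to 3. In the limb libraries of the N1 viewpoint it held at most 15 reads and in those of N3 from 4 to 52, so the libraries labelled N2 carried the signal of their own viewpoint. All coordinates are GRCm38 (mm10), and all values below leave out fragments with a midpoint within 20 kb of the primer.

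Total counts ran from 268772 to 570405 reads in forelimb and from 165471 to 486516 in hindlimb. Chromosome 5 took between 2.48% and 21.3% of them, and most reads lay on other chromosomes. Beyond 20 kb, chromosome 5 held 10961, 7808 and 5599 reads in forelimb replicates 1 to 3 and 6020, 2488 and 3660 reads in hindlimb replicates 1 to 3. Hindlimb replicate 3 stood apart, with the fewest reads in total and the largest share of them on chromosome 5. Its title numbers it 3 while another label numbers it 1, and differences that moved by more than 1.5 times without it are also given without it. Between 42.3% and 68.3% of the fragments with reads in a limb library had the same count as a neighbour, so neighbouring fragments are not independent measurements.

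Forelimb libraries reached more chromosome 5 fragments than hindlimb libraries. Of 51848 fragments, 580, 592 and 384 had at least 1 read in forelimb replicates 1 to 3, and 371, 239 and 353 in hindlimb replicates 1 to 3. The 3 forelimb values lay above all 3 hindlimb values, with means of 519 ± 117 and 321 ± 71.6 fragments (SD, n = 3). The exact permutation test gave p = 0.10, two-sided, which is the smallest value that 3 libraries against 3 allow and does not pass 0.05. Depth moved with this difference. At an equal 2488 reads per library the expected numbers were 368, 426 and 293 in forelimb and 273, 239 and 301 in hindlimb, which overlapped (exact permutation p = 0.20). The liver libraries spanned 315 to 2484 fragments, a wider range than both limbs together.

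In the TAD, chr5:41050000-41810000, the limbs did not overlap in the number of fragments reached. It holds the viewpoint, the N1 and N3 enhancers, *Rab28* and *Nkx3-2*, and it has 269 fragments beyond 20 kb, 0.519% of those of the chromosome. Of these, 53, 56 and 47 had reads in forelimb replicates 1 to 3, against 22, 23 and 40 in hindlimb replicates 1 to 3. The means were 52.0 ± 4.58 and 28.3 ± 10.1 fragments (SD, n = 3), a ratio of 1.84, and the groups did not overlap (exact permutation p = 0.10). At equal reads the order held, with 36.4, 38.9 and 34.4 fragments in forelimb and 15.9, 23.0 and 33.9 in hindlimb, although the lowest forelimb and the highest hindlimb library then lay close together. Fragments of the TAD made up 9.14% to 12.2% of the fragments with reads in forelimb and 5.93% to 11.3% in hindlimb, far above their share of the chromosome in both limbs.

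Distal TAD reads numbered 609, 466 and 316 in forelimb replicates 1 to 3 and 117, 38 and 263 in hindlimb replicates 1 to 3, again without overlap (exact permutation p = 0.10). The share of reads did overlap. As a percentage of distal chromosome 5 reads these were 5.56, 5.97 and 5.64 in forelimb and 1.94, 1.53 and 7.19 in hindlimb. The 3 forelimb values lay close together, and hindlimb replicate 3 lay above all of them (means 5.72 ± 0.217% and 3.55 ± 3.15%, SD, n = 3; exact permutation p = 0.40). Without it the forelimb mean exceeded the hindlimb mean by 3.99 percentage points, against 2.17 with it. The Wilson 95% interval of hindlimb replicate 2 ran from 1.11% to 2.09% on its 38 reads, and that of hindlimb replicate 3 from 6.39% to 8.07%. Such intervals cover counting error only, because PCR copies of one ligation product are counted as separate reads. The liver libraries held 8.40%, 5.38% and 16.7% there, and the share within 2 Mb of the viewpoint behaved likewise, at 7.36%, 7.33% and 6.20% in forelimb and 2.46%, 1.89% and 10.2% in hindlimb (exact permutation p = 0.40). Its difference rose from 2.10 to 4.79 percentage points without hindlimb replicate 3.

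**Figure D1:**
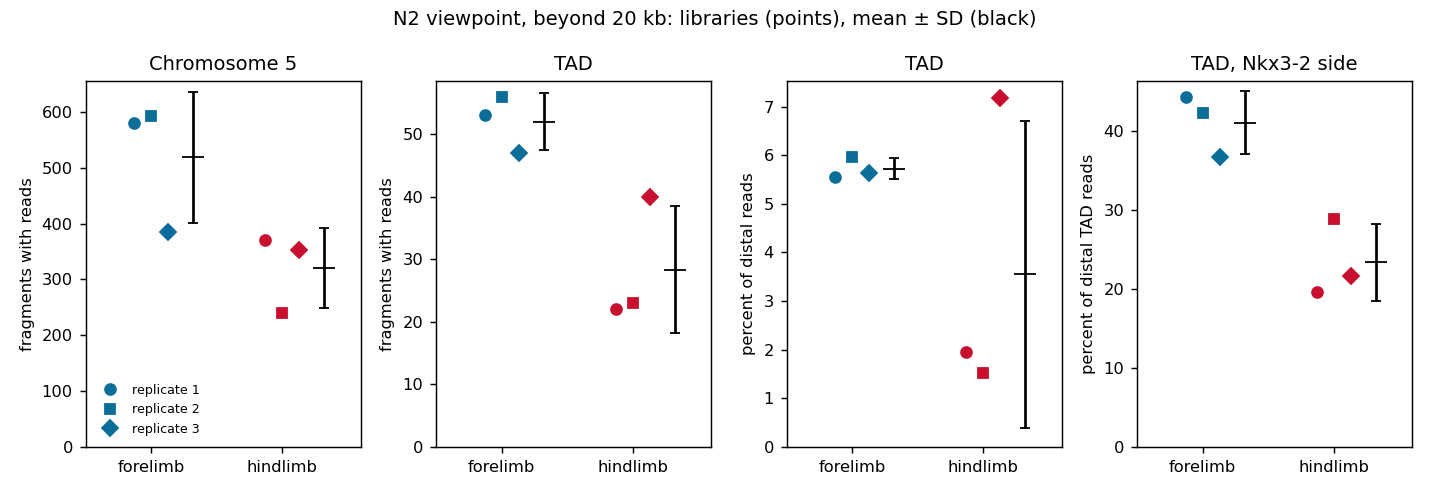
Values of each N2 library beyond 20 kb of the viewpoint: number of chromosome 5 fragments with reads, number of TAD fragments with reads, percent of distal chromosome 5 reads in the TAD, and percent of distal TAD reads on the *Nkx3-2* side. Marker shapes are replicates 1 to 3 and black bars are mean ± SD (n = 3). The limbs do not overlap in 3 of the panels, and hindlimb replicate 3 lies above every forelimb library in the panel of the TAD share.

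Within the TAD, the side towards *Nkx3-2* carried a larger share of the reads in forelimb than in hindlimb. It has 146 of the 269 TAD fragments beyond 20 kb, and in every limb library most TAD reads lay on the other side. Of the distal TAD reads, 44.3%, 42.3% and 36.7% lay on that side in forelimb replicates 1 to 3, and 19.7%, 28.9% and 21.7% in hindlimb replicates 1 to 3. Here hindlimb replicate 3 lay with its own group, and the forelimb mean of 41.1 ± 3.95% was 17.7 percentage points above the hindlimb mean of 23.4 ± 4.89% (SD, n = 3; exact permutation p = 0.10, the smallest possible). This comparison was chosen after its values had been seen. The liver libraries, not tested, held 44.5%, 32.6% and 45.8% of their distal TAD reads on that side. The hindlimb value of replicate 2 rests on 11 of 38 reads, with a Wilson 95% interval from 17.0% to 44.8% that reaches the forelimb range. Counting each fragment once narrowed the gap to 6.45 percentage points (exact permutation p = 0.30), and a viewpoint exclusion of 50 kb narrowed it to 9.86 (p = 0.20 by the same exact test). Fragments with reads on that side numbered 23, 29 and 23 in forelimb and 11, 8 and 16 in hindlimb, and on the other side 30, 27 and 24 in forelimb and 11, 15 and 24 in hindlimb. Over the whole chromosome the side did not separate the limbs, since the percentage of distal reads on the *Nkx3-2* side was 67.0, 71.1 and 70.5 in forelimb and 75.6, 74.6 and 63.5 in hindlimb (exact permutation p = 0.70). The difference of -1.68 percentage points became -5.54 without hindlimb replicate 3.

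**Figure D2:**
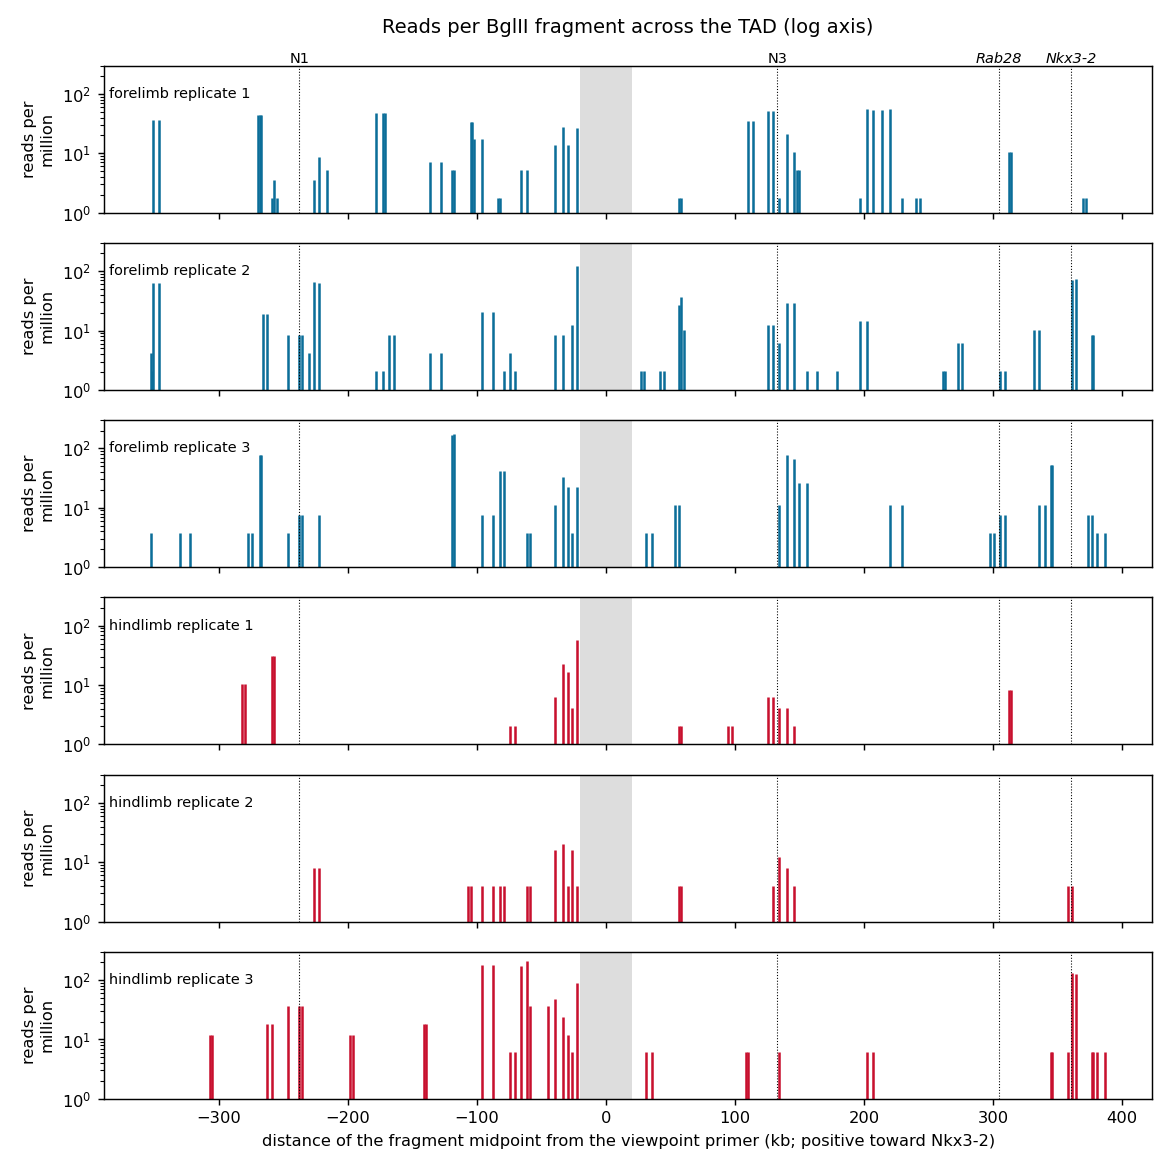
RPM, reads scaled to the library total (log axis), on each *BglII* fragment of the TAD, by distance of the fragment midpoint from the viewpoint primer in kb, in one panel per library with forelimb in blue and hindlimb in red. Dotted lines mark N1, N3 and the *Rab28* and *Nkx3-2* promoters, and the grey band is the excluded 20 kb. Just beyond N3, 2 neighbouring fragments carry 6 to 21 reads in every forelimb library and at most 2 in any hindlimb library.

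Before the viewpoint, fragments with reads became rarer with distance in both limbs, except between 2 hindlimb bands. These had 1.16% at 0.5 to 2 Mb and 1.25% at 2 to 10 Mb. Most distal reads nevertheless lay in the far bands. Of the 25 fragments at 20 to 100 kb before the viewpoint, 38.7 ± 4.62% had reads in forelimb and 41.3 ± 12.2% in hindlimb (SD, n = 3). At 100 to 500 kb on the same side these were 12.9 ± 2.69% and 6.44 ± 4.44%, and at 10 to 50 Mb 0.774 ± 0.153% and 0.475 ± 0.110%. On the *Nkx3-2* side there was no such fall near the viewpoint. Forelimb had 10.6 ± 6.14% at 20 to 100 kb and 15.1 ± 0.409% at 100 to 500 kb. Hindlimb had 6.50 ± 2.82% and 7.80 ± 4.31% there. The 21068 fragments beyond 50 Mb, out of 51848, took 50.5 ± 2.61% of the distal reads in forelimb and 52.2 ± 2.93% in hindlimb. Of these fragments, 0.914 ± 0.247% and 0.579 ± 0.133% were reached. At 10 to 50 Mb on the same side the values were lower, 0.720 ± 0.165% in forelimb and 0.408 ± 0.103% in hindlimb.

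Over 11 combinations of distance and side, the read shares of the limbs did not overlap in 2, both higher in forelimb, or 18.2% of those tested. These were 100 to 500 kb before the viewpoint, with 2.52%, 2.34% and 2.66% of distal reads in forelimb and 0.664%, 0.402% and 2.19% in hindlimb, and the same distance on the *Nkx3-2* side, with 2.45%, 2.01% and 2.04% in forelimb and 0.316%, 0.442% and 1.94% in hindlimb. The band holds N1 on one side and N3, *Rab28* and *Nkx3-2* on the other, and in both cases hindlimb replicate 3 was the hindlimb library nearest to the forelimb values. For the percentage of fragments with reads, 4 combinations did not overlap, 36.4% of those tested, and all were higher in forelimb. On the *Nkx3-2* side at 100 to 500 kb, 14.9%, 15.6% and 14.9% of 141 fragments had reads in forelimb and 4.96%, 5.67% and 12.8% in hindlimb. None of the combinations passed after Benjamini-Hochberg adjustment of the exact permutation p-values, with a smallest adjusted p of 0.55 for read shares and 0.28 for fragments. No unadjusted p was under 0.05, as 3 libraries against 3 cannot reach it.

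**Figure D3:**
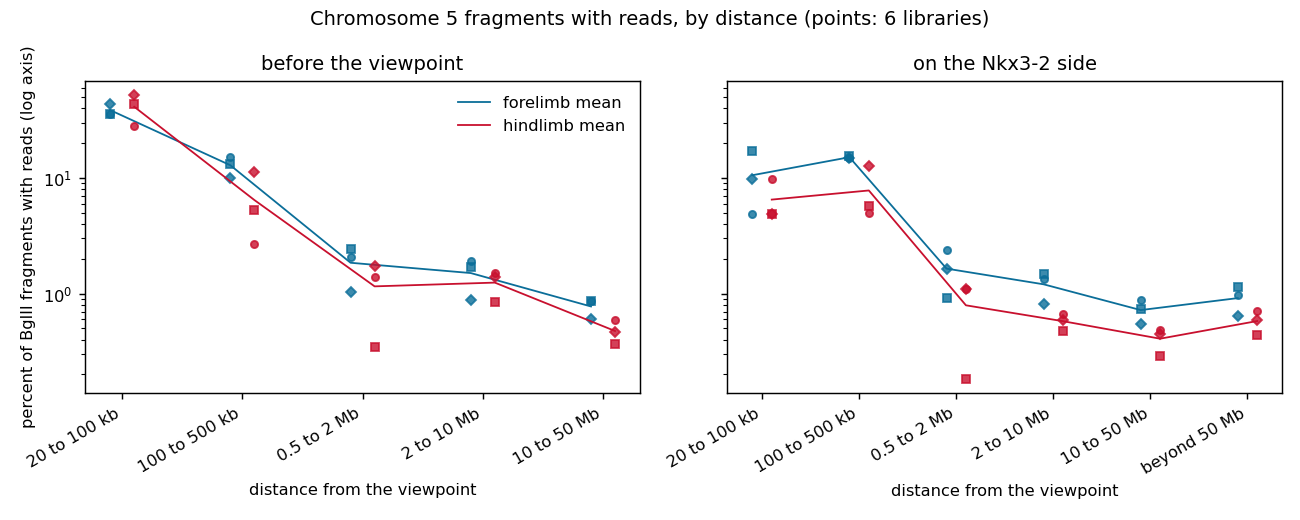
Percent of chromosome 5 fragments with at least 1 read (log axis) by distance from the viewpoint, before it and on the *Nkx3-2* side. Points are the 3 libraries of each limb and lines join the means of forelimb (blue) and hindlimb (red). In both limbs the percentage drops from 38.7 and 41.3 at 20 to 100 kb before the viewpoint to below 2 beyond 0.5 Mb.

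Reads at the N3 enhancer region did not overlap between the limbs. Fragments within 25 kb of N3, which lies 133 kb from the primer, held 124, 44 and 56 reads in forelimb replicates 1 to 3 and 11, 7 and 3 reads in hindlimb replicates 1 to 3. In RPM, reads scaled to the library total, these were 217, 91.3 and 208 against 22.6, 28.3 and 18.1. The lowest forelimb library thus stood above the highest hindlimb library in reads. Counted once each, 9, 6 and 5 of the 14 fragments had reads in forelimb and 5, 4 and 3 in hindlimb, so the limbs met at 5. The means of 172 ± 70.4 and 23.0 ± 5.08 RPM (SD, n = 3) differed 7.49-fold, with an exact permutation p of 0.10 and 0.80 after adjustment over the 16 elements. Of these 16, 2 (12.5%) were higher in forelimb without overlap and none was higher in hindlimb. Among 960 windows of 50 kb on chromosome 5 with a limb read, 1.88% were higher in forelimb without overlap and 0.417% higher in hindlimb. These include windows with reads in only 1 or 2 libraries, which cannot separate the limbs, so the 2 percentages are not on an equal footing with that of the elements. The liver libraries held 83.4, 121 and 1467 RPM at N3, which lie just below, within and above the forelimb range.

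Of these reads, 2 neighbouring fragments beyond the enhancer were reached by every forelimb library. The fragment chr5:41540796-41548255 had counts of 12, 14 and 21 in forelimb replicates 1 to 3 and of 2, 2 and 0 in hindlimb replicates 1 to 3. Its neighbour chr5:41548256-41550628 had 6, 14 and 18 in forelimb and 1, 1 and 0 in hindlimb. In forelimb replicate 1 most reads lay before the enhancer instead, with 20 each on chr5:41513880-41514436 and chr5:41514437-41520408 and 29 and 30 on chr5:41529534-41530051 and chr5:41530052-41535810, on which forelimb replicate 3 had none. The 2 neighbouring fragments beyond the enhancer are intergenic, between N3 and *Rab28*. They were the only ones of the 119 TAD fragments with a limb read whose RPM did not overlap between limbs (1.68%). The hindlimb was higher without overlap in none of the 119. Among all 1792 chromosome 5 fragments with a limb read, 0.837% were higher in forelimb and 0.223% in hindlimb without overlap. Of those 1792, 1416 had reads in 1 library only and could not separate the limbs. As neighbours at 1 cut with like counts, the 2 fragments are not independent measurements. In the limb libraries of the N3 viewpoint, whose primer was amplified in the same pool of 6, the pair held from 12 to 136 and from 2 to 88 reads. The fragment that carries the N3 primer and enhancer, chr5:41535811-41540795, held 32593 to 137006 reads in those libraries but 1, 3 and 3 in forelimb and 2, 3 and 1 in hindlimb of the N2 viewpoint. The part of reads from the other primer of the pool in the values of the pair was not tested.

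The cut that the pair shares is shown with its *BglII* site in capitals, beside the cut shared by the only pair of neighbouring TAD fragments that had reads in all 6 limb libraries.
Cut shared by the pair beyond N3, chr5:41548228-41548287, plus strand: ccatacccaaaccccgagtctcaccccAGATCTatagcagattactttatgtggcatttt
Cut shared by the recurring pair before the viewpoint, chr5:41368396-41368455, plus strand: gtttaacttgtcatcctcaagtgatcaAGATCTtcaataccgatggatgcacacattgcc
At the second cut the counts of the limbs overlapped, on fragments picked for having reads in all 6 limb libraries. The pair lies in the 25-kb window given in the next paragraph as called higher in hindlimb. Counts on chr5:41360580-41368423 were 8, 4 and 3 in the forelimb libraries and 3, 4 and 8 in the hindlimb libraries. On chr5:41368424-41372733 they were 16, 4 and 9 against 11, 5 and 4.

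With windows of 10 kb up to 2 Mb from the primer, edgeR's quasi-likelihood test could use only 2 windows, because the others had too few reads, and it called 1 of them (50%). The called window, chr5:41540001-41550000, is the pair beyond N3, with 18, 28 and 39 forelimb reads and 3, 3 and 0 hindlimb reads (log2 fold change 2.97, SE 0.63, Benjamini-Hochberg adjusted p = 0.003). The other, chr5:41370001-41380000, held 24, 10 and 16 forelimb reads and 21, 10 and 7 hindlimb reads (adjusted p = 0.58 by the same test). Scaling factors and dispersion thus rested on 2 windows, and the call was not kept with all of chromosome 5, where edgeR tested 43 windows, called none (0%), had 2 with an unadjusted p under 0.05 and gave the same window an unchanged log2 fold change of 2.97 with an SE of 1.20 and an adjusted p of 0.67. With the replicate numbers as a block its log2 fold change was 3.00 (SE 1.16) and its adjusted p 0.12 by edgeR. Without hindlimb replicate 1, 2 or 3 edgeR called no window. With 25-kb windows edgeR called 1 of 4, chr5:41350001-41375000, as higher in hindlimb after TMM scaling (log2 fold change -1.12, adjusted p = 0.004). This window includes the recurring pair before the viewpoint, and it held 32, 8 and 18 forelimb reads and 22, 10 and 20 hindlimb reads.

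The other elements of the locus gave no separation. At N1, 238 kb before the primer, 14, 85 and 7 reads lay within 25 kb in forelimb and 30, 4 and 24 in hindlimb, a mean difference of 1.35 RPM that was 36.7 RPM without hindlimb replicate 3. The nearest fragment with reads in all forelimb libraries, chr5:41179602-41183708, held 5, 30 and 2 reads there and 0, 2 and 0 in hindlimb. Around the *Nkx3-2* promoter, 361 kb from the primer, there were 2, 77 and 36 forelimb reads and 0, 2 and 49 hindlimb reads. Thus 1 forelimb and 2 hindlimb libraries were at or near 0, the hindlimb mean rested on replicate 3, and the means of 99.1 ± 83.7 and 101 ± 169 RPM (SD, n = 3) differed by less than the spread (exact permutation p = 0.90). Without hindlimb replicate 3 the forelimb mean was 95.02 RPM higher. *Rab28* had 12, 2 and 6 reads against 8, 0 and 0, and *Bod1l*, whose promoter lies beyond the TAD, 0, 0 and 3 against 0, 0 and 1, where the mean difference was 1.71 RPM and 3.72 RPM without hindlimb replicate 3. A count of 0 allows up to 3 reads, or 6.17, 12.1 and 18.1 RPM in hindlimb replicates 1 to 3, so that no contact of the hindlimb can be called absent there.

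Of the genes outside the TAD, *Fgfbp1*, which encodes a carrier protein for fibroblast growth factors, was the other element without overlap. It held 17, 9 and 5 forelimb reads and 0, 1 and 0 hindlimb reads, at 2578 kb from the primer, and these lay on no more than 2 fragments in any library (exact permutation p = 0.10, adjusted p = 0.80). *Cc2d2a* had 64 reads in forelimb replicate 1 and none in the other limb libraries. The regions of *Bst1* and *Fbxl5*, which overlap each other, had 50 reads in forelimb replicate 3 and none elsewhere in the limbs. The other 7 genes, *Hs3st1*, *Cpeb2*, *C1qtnf7*, *Cd38*, *Prom1*, *Tapt1* and *Ldb2*, had at most 2 reads in any limb library.

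Libraries of one limb shared about as many fragments as libraries of different limbs. The Jaccard index, the fragments with reads in both libraries divided by those with reads in either, averaged 0.135 over the 6 pairs within a limb (range 0.105 to 0.182) and 0.125 over the 9 pairs between limbs (range 0.0925 to 0.152). The difference of 0.00963 gave p = 0.40 by an exact permutation of the limb labels (two-sided, smallest possible p 0.20), and was 0.00185 without hindlimb replicate 3. In the TAD the means were 0.243 within and 0.231 between limbs (exact permutation p = 0.60), and within 2 Mb 0.187 and 0.165 (exact permutation p = 0.60). The most alike libraries were hindlimb replicates 1 and 2, which shared 94 fragments, 25.3% and 39.3% of their sets. The least alike were forelimb replicates 1 and 2 with hindlimb replicate 3, which shared 79 and 80 fragments at indices of 0.0925 each. All pairs use the same few libraries and are not independent.

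**Figure D4:**
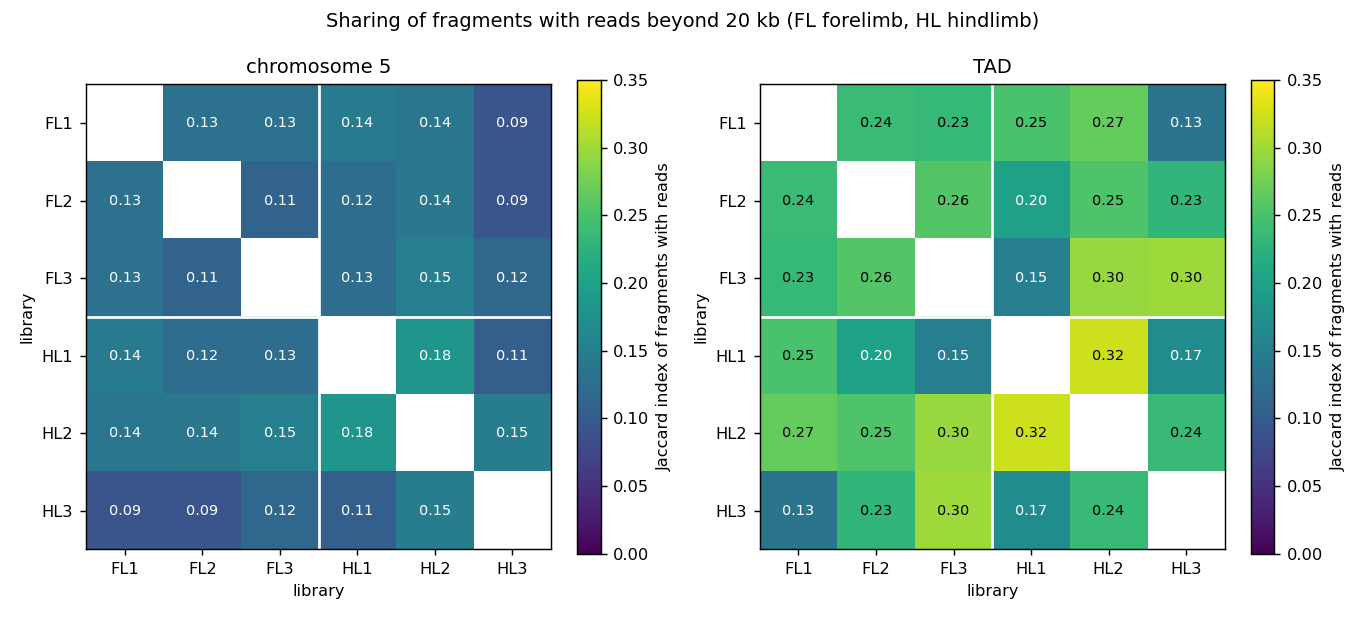
Jaccard index of the fragments with reads beyond 20 kb for every pair of N2 limb libraries, over chromosome 5 (left) and the TAD (right). White lines separate forelimb from hindlimb. On chromosome 5 the blocks within a limb (mean 0.135) and between limbs (mean 0.125) show like values, and the TAD values are higher in both (0.243 and 0.231).

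Few fragments were reached repeatedly. Of 1792 chromosome 5 fragments with a read in any limb library, 1281 had one in forelimb, 773 in hindlimb and 262 in both. Single libraries accounted for 1416 fragments, while 70 had reads in all 3 forelimb libraries, 49 in all 3 hindlimb libraries and 38 in all 6. The last number is 54.3% of the forelimb set and 77.6% of the hindlimb set. In the TAD, 119 of the 269 fragments had a limb read, 55 of them in 1 library, 9 had reads in all forelimb libraries, 6 in all hindlimb libraries and 4 in all 6. The 4 lie at chr5:41360580-41368423, chr5:41368424-41372733, chr5:41379126-41383901 and at the N3 enhancer fragment above, and the first 3 are within 40 kb of the primer.

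The TAD fragment with the highest mean share of forelimb reads was chr5:41379126-41383901, the nearest of these to the excluded zone, with 15, 60 and 6 forelimb reads and 28, 1 and 15 hindlimb reads. In hindlimb the highest mean share lay on chr5:41342535-41342765, which held 0, 1 and 35 reads in hindlimb and 3, 0 and 1 in forelimb, and so rests on hindlimb replicate 3. The remaining TAD fragments with reads in all 3 libraries of a limb held few reads. The fragments chr5:41372734-41376575 and chr5:41376576-41379125, next to the recurring pair, had 8, 1 and 2 and 2, 4 and 1 reads in hindlimb, with 1 forelimb library at 0 for each. The fragment chr5:41302411-41313578 had 10, 10 and 2 forelimb reads and 0, 1 and 30 hindlimb reads, and chr5:41459078-41461779 had 1, 13 and 3 in forelimb and 1, 1 and 0 in hindlimb.

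The 38 fragments with reads in all 6 limb libraries, chosen here by that count and described without a test, took 45.2%, 42.8% and 44.6% of the distal reads in forelimb replicates 1 to 3 and 55.5%, 65.7% and 28.0% in hindlimb replicates 1 to 3. Of them, 34 lie outside the TAD and 30 more than 10 Mb away. The one with the most reads in 4 libraries was chr5:142127399-142132323 in *Sdk1*, 101 Mb from the primer, with 1034, 487 and 369 forelimb reads and 332, 282 and 293 hindlimb reads. The other leading fragment was chr5:112260704-112266759 at *Crybb1*, a lens crystallin gene, with 354, 328 and 430 forelimb reads and 807, 257 and 110 hindlimb reads. Both were also among the fragments with reads in liver, at 632, 573 and 391 and at 496, 308 and 119 reads.

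The other fragments among the leading 5 of a limb follow. In forelimb these were chr5:30683216-30686518 between genes, with 971, 285 and 178 reads against 199, 58 and 6 in hindlimb, chr5:79657875-79659979, with 216, 429 and 125 against 341, 159 and 3, and chr5:138794044-138800522 in *Fam20c*, which encodes a kinase of secreted proteins, with 198, 271 and 140 against 146, 38 and 9. In hindlimb they were chr5:79657875-79659979 again, chr5:130846509-130854546 in *Caln1*, with 187, 113 and 19 reads against 58, 148 and 40, and chr5:9072253-9077641, with 106, 103 and 71 against 84, 36 and 111. Over the 38 fragments, the log2 share of each in the reads summed over a limb correlated between limbs at Pearson r = 0.853, a value across fragments, which are not independent, in libraries made with the same primer pool.

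All of these fragments also had reads in liver, and some in the limb libraries of the other viewpoints. All 38 fragments had reads in at least 1 N2 liver library and 32 in all 3. Of all 51848 distal fragments, 3456 had reads in at least 1 and 86 in all 3. Liver libraries 1, 2 and 3 had reads on 38, 33 and 35 of the 38, against 2.24%, 0.608% and 4.79% of all distal fragments. Of the 38, 5 (13.2%) had a read in any N1 limb library, against 1.35% of all distal fragments, and 18 (47.4%) in any N3 limb library, against 8.74%. The 5 include all 4 that lie in the TAD, which also holds N1, and the remaining fragment had at most 2 N1 reads. The N1 limb libraries were shallow, with 2984 to 20134 reads in total. In 36 of the 38 no N3 limb library had more than 10 reads. RPM did not overlap between limbs in 8 of the 38, with 7 higher in forelimb and 1 in hindlimb. Among all 1792 fragments with a limb read, 0.837% were higher in forelimb and 0.223% in hindlimb without overlap, but fragments reached by every library are better placed to show a separation than those with 1 read.

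**Figure D5:**
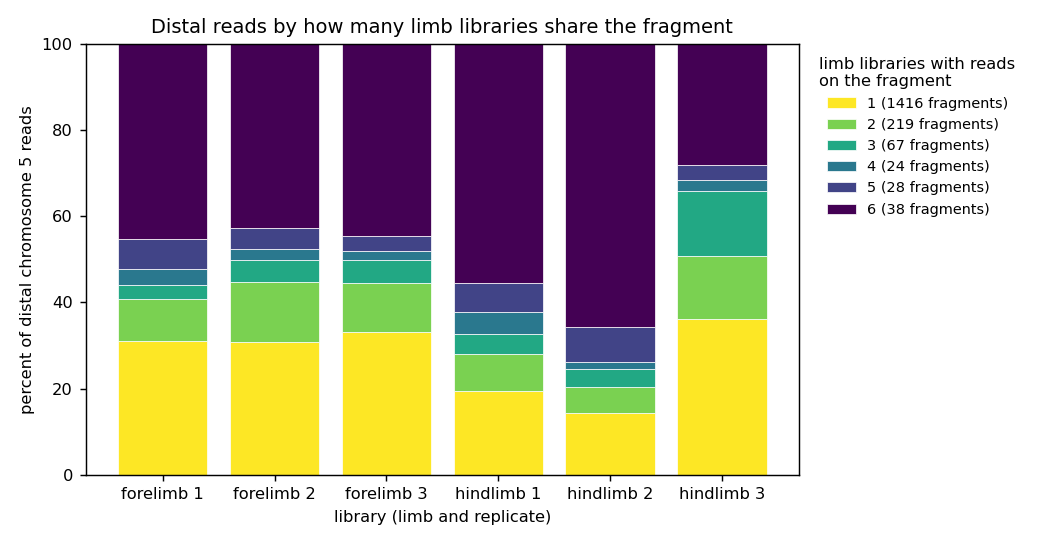
Percent of distal chromosome 5 reads of each N2 limb library on fragments that have reads in 1 to 6 of the limb libraries, stacked from 1 (yellow) to 6 (dark). The 38 fragments found in all 6 take between 28.0% of the reads (hindlimb replicate 3) and 65.7% (hindlimb replicate 2).

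Letters of the 3′ end of the primer were counted in the fragments, as a description without a test. The last 7 letters of the primer, AGCTTAG, were searched on both strands and occurred in 21 of the 38 fragments (55.3%), in 35.6% of the fragments with reads in 1 limb library and in 22.4% of all distal fragments. Length moves with this, as the median was 5.11 kb in the 38 and 1.91 kb over all, and per Mb of sequence the letters occurred 158 times in the 38 and 105 times over all. The values did not follow the number of libraries throughout, as fragments with reads in 3 limb libraries had 188 per Mb (43.3% of fragments) and those with reads in 5 had 190 per Mb (60.7% of fragments). Among the 38, the longest matches were 13 letters in the *Fam20c* fragment and 10 in the *Crybb1* fragment, both among those with the most reads. Longer matches, of up to 14 letters, occurred among fragments with no limb read and among those with reads in 3 limb libraries. The *Fam20c* and *Crybb1* matches follow with the matching letters in capitals, after the primer, all on the plus strand. The *Crybb1* match covers only the last 10 letters of the primer.
Primer at chr5:41403985-41404010: gcgatctgaagaaCTAAGAAGCTTAG
*Fam20c* fragment at chr5:138795154-138795208: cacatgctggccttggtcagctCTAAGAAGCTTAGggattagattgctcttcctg
*Crybb1* fragment at chr5:112263662-112263713: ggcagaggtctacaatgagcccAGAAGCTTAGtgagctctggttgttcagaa
The *Sdk1* fragment, with the most reads, held a match of only 6 letters, and 11605 distal fragments held 7 or more, mostly with no reads. The part of priming at such sites in the read counts was not tested.

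Recurrence in one limb with no read in the other was rare. Of the 70 fragments with reads in all 3 forelimb libraries, 4 had none in any hindlimb library. They include the neighbours chr5:39686084-39689186 and chr5:39689187-39701380 in *Hs3st1*, a heparan sulfate sulfotransferase gene, each with 2, 1 and 3 reads. The others were chr5:105788841-105790569 with 1, 7 and 5, and chr5:109331883-109334062 with 14, 1 and 1. Of the 49 fragments with reads in all 3 hindlimb libraries, 3 had none in any forelimb library. These were chr5:122953109-122956437 in *Kdm2b*, a histone demethylase gene, with 2, 1 and 1 reads, and the neighbours chr5:136077698-136078068 and chr5:136078069-136079000, each with 1, 2 and 67. None of the 7 lies in the TAD, and at such counts a 0 in the other limb was not detectably different from a low level.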

How the data were processed

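The authors prepared 3C template from pooled E14.5 tissue, amplified it with an adapter primer and a pool of 6 viewpoint primers, trimmed and mapped the reads (cutadapt 1.10, BWA 0.7.10-r789, mm10), kept alignments of MAPQ 30 or more outside blacklisted regions, and deposited counts of reads on each of 949826 *BglII* fragments per library. The deposited signal column, the same counts per kb, was not used. Chromosome 5 has 51862 of these fragments, and all 51861 *BglII* sites of GRCm38.p6 coincided with their ends. Fragments were placed by midpoint. The primer, TAD and enhancer positions come from the study's supplement and promoters from GENCODE vM21.

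Forelimb and hindlimb were compared with exact permutation tests of the difference of means, two-sided, adjusted by Benjamini-Hochberg within a family, and window counts with the quasi-likelihood test of edgeR 4.0.16 after filterByExpr and TMM scaling, taking all reads as library size and 0.05 as threshold. DESeq2 1.42.0 (R 4.3.3) gave an alternative, and Python 3.11.15 with scipy 1.17.1 the remaining values. The functions were tested on simulated data. Nothing in the labels states that libraries of one replicate number share embryos, so p-values measure the spread between these libraries. Across the 43 windows of chromosome 5 that edgeR tested, the deviations of same-numbered libraries correlated at 0.23, 0.14 and 0.39. All were above 0.1, so the number was also used as a block. Forelimb replicate 2 correlated more with a hindlimb library of another number, so these values do not establish a pairing. Members, lists and the named elements were chosen with earlier results of these data known. Named in the text were *Nkx3-2*, *Rab28*, *Bod1l*, N1, N3, other locus genes without overlap between limbs, at most 3 called windows per test, TAD fragments with reads in all 3 libraries of a limb (at most 10), at most 5 other fragments per limb with such reads, the leading fragments, and those with reads in all 6 limb libraries, the latter by counts and examples. Alternatives were other minimum reads, exclusions, caps, region and window sizes, neighbours of equal count taken once, equal reads, scaling, denominators and each replicate left out. Chosen after seeing the data were leaving out the fragments with reads in all 6 libraries, the window filter of 10 reads, and all values on the side within the TAD.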

Additional observations from a re-analysis of the deposited data

How the results depend on the processing

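In reads and fragments with reads in the TAD and on chromosome 5, in the share within 2 Mb and in the share of TAD reads on the *Nkx3-2* side, the forelimb mean stayed above the hindlimb mean under every alternative run except 1, and no exact permutation test passed 0.05, which the design does not allow. The exception was the chromosome 5 share with each fragment counted once, where the difference was -0.31 instead of 0.39 percentage points (0.754 without hindlimb replicate 3). The share of all distal reads on the *Nkx3-2* side, -1.68 percentage points as reported, reversed to 0.918 with capped counts, 3.36 with each fragment once and 0.0218 without the fragments found in all 6 libraries, and to 2729 in RPM, and ranged from -5.54 to 0.505 when a replicate was left out, above 0 without hindlimb replicate 1. The overlap difference was -0.0178 with the overlap coefficient. In RPM, the N1 difference (1.35) was -20.4 within 10 kb and -49.0 to 36.7 with a replicate left out. That of *Nkx3-2* (-2.34) was 9.05 within 50 kb, 0.0761 percentage points as a share of distal reads, 0.667 with each fragment once and -53.0 to 95.02 with a replicate left out. That of *Bod1l* (1.71) was -27.5 within 50 kb and -2.01 to 3.72 with a replicate left out. The cause of these reversals was not tested. N3 kept its direction under every alternative and *Fgfbp1* under all but regions of 10 kb, which held no reads in either limb, with differences of 127 to 190 and 17.3 to 22.9 RPM when a replicate was left out. Window calls, 1 by edgeR as reported, were 0 with 50-kb windows, with all of chromosome 5, without the filter (7 of 112 under an unadjusted p of 0.05), with the replicate block (0 of 2 unadjusted, smallest adjusted p 0.12), and with a minimum of 10 reads and no TMM scaling (8 of 46 unadjusted), were 2 by DESeq2, 1 in each direction, and ranged from 0 to 2 with a replicate left out. The block changed no other call, as 3 pairs cannot give an exact p below 0.25. Single fragments could not be fitted, since under 2 passed the filter. Depth limits these data, as 55 of the 119 TAD fragments with reads were seen in 1 library, and at 38 TAD reads hindlimb replicate 2 cannot show differences between single fragments.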
